A study of Mus musculus with 34 samples.

Results

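The genes described here are 10 members of the MHC class I presentation pathway: the heavy chains H2-K1 and H2-D1, their shared light chain B2m, the peptide transporter subunits Tap1 and Tap2, the loading protein tapasin (Tapbp), the immunoproteasome subunits Psmb8, Psmb9 and Psmb10, and the transactivator Nlrc5. They were chosen by name and found in all 34 deposited tables, as 10 of 23509 genes, and all 10 passed the filter on low counts. Polyadenylated RNA of whole kidney had been sequenced on postnatal day 28 in mice of the C57BL6 background. Pkd2-KO mice, which the titles spell Pdk2KO, carried floxed Pkd2 alleles and a Cre transgene driven by the Pkhd1 promoter, which is active in kidney tubules and collecting ducts, and served as a model of polycystic kidney disease. They received subcutaneous RGLS4326 at 20 mg per kg (n = 11) or PBS (n = 11) on postnatal days 10, 11, 12 and 19. The groups follow the sample labels, and a figure of the study gives a smaller number of PBS mice. Strain-matched untreated non-transgenic mice (UNT, n = 12) were not injected, so genotype and injection cannot be told apart between PBS and UNT. The drug RGLS4326 is a modified antisense oligonucleotide that pairs with the seed of the microRNA miR-17.

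Class I molecules show peptides from inside a cell to CD8 T cells. The proteasome cuts cytosolic proteins, the Tap1 and Tap2 transporter moves the fragments into the endoplasmic reticulum, tapasin bridges the transporter to the waiting heavy chain, and the heavy chain leaves for the cell surface with B2m and its peptide. In the immunoproteasome, Psmb8, Psmb9 and Psmb10 take the places of the constitutive catalytic subunits Psmb5, Psmb6 and Psmb7. Interferon gamma induces the 10 members but not these constitutive subunits, and Nlrc5 is a transactivator of class I promoters. In the kidney both tubular cells and infiltrating leukocytes can express class I, and leukocytes carry more of it.

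On the mouse genome GRCm38 with GENCODE M21 annotation, 7 of the members lie on chromosome 17. Tapbp occupies 33915899 to 33929292, H2-K1 33996017 to 34000347 on the minus strand, and Psmb9, Tap1, Psmb8 and Tap2 follow side by side. H2-D1 closes the interval at 35262730 to 35267499. B2m is on chromosome 2 (122147686 to 122153083), and Psmb10 and Nlrc5 are on chromosome 8. Exons of H2-K1, H2-D1, B2m and Psmb10 overlap no other annotated gene, but those of the other 6 members do. Tap1 and Psmb9 share 212 exon bases on opposite strands, and Tapbp shares 149 bases with Zbtb22 on its own strand and 904 with the antisense gene Gm19412. Because the strand setting of the counting was not given in the sources used here, the levels of these 6 are uncertain to that extent. Of the 75-base windows of the longest coding transcript, 6.90% in H2-D1 and 1.55% in H2-K1 recur in transcripts of other genes such as H2-Q1 and H2-Q7, and read pairs that lie within such windows have no unique alignment.

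The members whose promoters are compared first are the heavy chains and B2m, whose products form 1 complex, and Tap1. In RefSeq the start of Tap1 lies 226 bases from that of Psmb9 on the other strand. The 212 exon bases that the 2 genes share are from the GENCODE annotation. RefSeq sequences (GRCm38.p6) from 250 bases before to 50 bases after the RefSeq gene start were found for 8 members, and Tap2 and Nlrc5 are only named. These starts differ for some members from the GENCODE starts used above. The windows of H2-D1, Tapbp (chr17:33919228-33919527), Psmb8 (chr17:34197945-34198244) and Psmb9 (chr17:34187281-34187580) lie inside the genes as GENCODE annotates them. They therefore do not cover the bases before the GENCODE starts of these genes. In the 4 sequences below, read 5′ to 3′ on the strand of each gene, capitals mark matches on either strand to the letters GAAANNGAA and GAANTGAAA (the core of the element bound by interferon regulatory factors, in 2 spacings), GGGANTNNC (part of the element bound by NF-kappaB), TGACG (part of the X box of class I promoters) and CCAAT (the Y box). They stand at chr17:34000298-34000597 (minus strand), chr17:35262844-35263143, chr2:122147437-122147736 and chr17:34187306-34187605.
H2-K1: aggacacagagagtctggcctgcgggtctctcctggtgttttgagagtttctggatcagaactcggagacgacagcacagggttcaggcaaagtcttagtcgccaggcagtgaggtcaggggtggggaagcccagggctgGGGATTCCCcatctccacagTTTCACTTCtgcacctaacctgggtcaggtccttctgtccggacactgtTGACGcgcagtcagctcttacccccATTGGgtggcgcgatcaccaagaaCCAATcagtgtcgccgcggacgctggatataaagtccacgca
H2-D1: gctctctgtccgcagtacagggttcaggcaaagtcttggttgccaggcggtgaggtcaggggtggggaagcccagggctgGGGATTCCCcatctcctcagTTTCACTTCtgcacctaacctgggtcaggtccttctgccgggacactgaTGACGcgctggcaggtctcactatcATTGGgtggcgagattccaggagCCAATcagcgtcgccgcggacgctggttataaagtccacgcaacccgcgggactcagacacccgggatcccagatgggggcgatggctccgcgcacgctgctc
B2m: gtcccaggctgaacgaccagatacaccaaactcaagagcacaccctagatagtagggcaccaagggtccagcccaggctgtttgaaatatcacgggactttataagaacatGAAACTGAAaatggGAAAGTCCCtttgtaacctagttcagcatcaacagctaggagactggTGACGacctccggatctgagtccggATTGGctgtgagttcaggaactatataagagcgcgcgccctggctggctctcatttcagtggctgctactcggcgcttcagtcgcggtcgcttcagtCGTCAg
Tap1: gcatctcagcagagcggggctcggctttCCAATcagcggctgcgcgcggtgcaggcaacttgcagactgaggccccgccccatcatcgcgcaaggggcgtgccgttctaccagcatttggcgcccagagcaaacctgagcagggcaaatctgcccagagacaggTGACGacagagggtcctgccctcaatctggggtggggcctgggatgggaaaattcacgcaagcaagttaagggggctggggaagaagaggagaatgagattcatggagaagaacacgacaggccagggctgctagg

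H2-K1 and H2-D1 carry the same 5 matches in the same order, and counted from TGACG they start at -69 (GGGATTCCC, which reads as a match on both strands), -49 (TTTCACTTC) and 25 (ATTGG) in both genes, and at 49 and 48 for the downstream CCAAT. Shifted by 60 bases, the windows of both genes are identical at 176 of 240 positions (73.3%). B2m has ATTGG at the same 25 bases from its first TGACG, with GAAACTGAA and GAAAGTCCC upstream. Among the 8 members with a window, GAANTGAAA occurred in 2 and in 1.86% of 27025 promoters, GAAANNGAA in 1 and in 8.57%, GGGANTNNC in 3 and in 14.1%, TGACG in 5 and in 21.0%, and CCAAT in 6 and in 37.9%. Over the promoters of tested genes alone these shares were 1.39%, 7.38%, 15.4%, 29.7% and 38.0%. The windows of Tap1 and Psmb9 share 275 of their 300 bases, so their TGACG and CCAAT are the same letters counted for both genes. These are matches of letters and not measured sites, and the windows of Psmb8 and Psmb10 held none of them. For Psmb8 this does not describe the bases before its GENCODE start, which its window does not cover.

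The microRNA at which RGLS4326 is aimed is shown because its seed match is the letter string by which a direct target would be recognised, with the seed (bases 2 to 8) in capitals.
mmu-miR-17-5p: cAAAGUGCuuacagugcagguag

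The matches GCACTTT and CACTTTA did not occur in the longest annotated 3′ untranslated region of any of the 10 members, which run from 55 bases in Psmb10 to 1197 bases in Nlrc5. At least 1 of the strings was present in 3011 of 14193 tested genes (21.2%), without regard to length.

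All 10 members were higher in PBS-treated Pkd2-KO kidneys than in UNT kidneys, by 1.86-fold (Nlrc5) to 5.37-fold (Psmb8), at a background of 43.1% of the 15644 genes tested being called higher. The median log2 fold change of the members was 1.5, beside 0.04 over all genes tested. Throughout, calls are those of the quasi-likelihood test of edgeR on all 34 libraries with Benjamini-Hochberg adjusted p under 0.05, and levels are CPM (library-size-normalised read counts) after TMM scaling. For 8 of the 10, every PBS mouse lay above every UNT mouse, which held for 22.7% of all genes tested. The libraries held 17603122 to 54981992 reads in genes, and the members between 87 reads (Psmb9) and 49218 reads (H2-K1) in a library, so differences between mice rather than counting error set the precision.

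**Figure D1:**
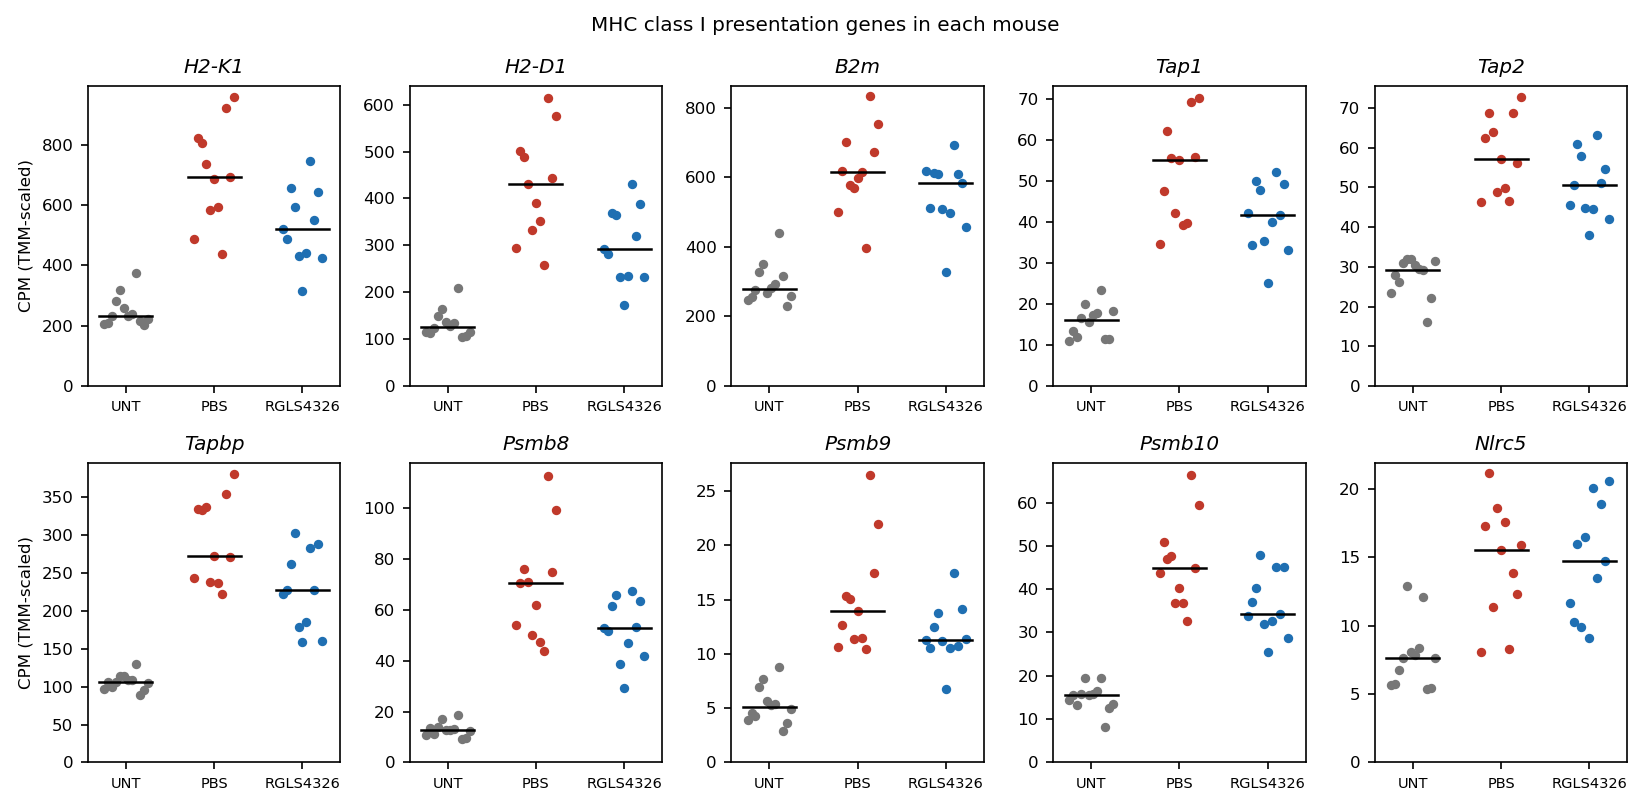
Level of each member in each mouse, in CPM after TMM scaling on a linear axis from 0 (1 point per mouse, horizontal bar at the group median, mice of a group in the order of their numbers). The PBS points lie above the UNT points without overlap in 8 of the 10 panels, with B2m and Nlrc5 as the exceptions, and the RGLS4326 points lie between or among them.

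The heavy chains present the peptide. H2-K1 ranged from 203 CPM over a median of 233 to 373 CPM in UNT mice, from 436 over 693 to 958 CPM in PBS mice, and from 315 over 521 to 747 CPM in RGLS4326 mice. The UNT and PBS groups did not overlap, and PBS was higher by 1.49 ± 0.13 on the log2 scale (± SE, adjusted p = 1.61e-12). H2-D1 ran from 105 over 125 to 209 CPM in UNT, from 258 over 432 to 615 CPM in PBS and from 174 over 292 to 431 CPM in RGLS4326 mice, again with no overlap between UNT and PBS (log2 fold change 1.67 ± 0.15, adjusted p = 8.75e-13). B2m, the invariant light chain, ran from 231 over 278 to 440 CPM in UNT, from 396 over 616 to 833 CPM in PBS and from 327 over 584 to 694 CPM in RGLS4326 mice. Its UNT and PBS ranges overlapped through UNT replicate 9 and PBS replicate 8, and its difference was smaller than that of the heavy chains (1.08 ± 0.11, adjusted p = 9.82e-11).

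The transporter and the loading protein rose with them. Tap1 lay between 10.9 and 23.4 CPM in UNT mice and between 34.7 and 70.3 CPM in PBS mice, with medians of 16.1 and 55.3 CPM (1.73 ± 0.14, adjusted p = 7.20e-14). Tap2 lay between 16.0 and 32.1 CPM in UNT and between 46.4 and 72.7 CPM in PBS mice, with medians of 29.2 and 57.2 CPM (1.08 ± 0.10, adjusted p = 6.12e-12). The partner subunits of 1 transporter thus differed in the size of their change, which was not tested as a difference between genes. Tapbp, which was the steadiest member in UNT mice at 89.2 to 130 CPM with a median of 106 CPM, ran from 223 over 272 to 381 CPM in PBS mice (1.46 ± 0.11, adjusted p = 6.34e-15).

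Among the catalytic subunits of the immunoproteasome, Psmb8 had the largest change of the 10 members. It ran from 9.05 over 12.6 to 18.7 CPM in UNT and from 44.0 over 70.3 to 113 CPM in PBS mice (2.42 ± 0.15, adjusted p = 1.15e-16). Psmb9 ran from 2.88 over 5.09 to 8.80 CPM in UNT and from 10.4 over 14 to 26.4 CPM in PBS mice (1.51 ± 0.17, adjusted p = 4.79e-10). Psmb10 ran from 8.12 over 15.5 to 19.5 CPM in UNT and from 32.7 over 44.8 to 66.3 CPM in PBS mice (1.62 ± 0.12, adjusted p = 1.93e-14). None of the 3 overlapped between UNT and PBS.

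Nlrc5 was the member with the smallest difference and the widest overlap. Its levels ran from 5.4 over 7.65 to 12.9 CPM in UNT, from 8.07 over 15.6 to 21.2 CPM in PBS and from 9.14 over 14.8 to 20.6 CPM in RGLS4326 mice. Of the 11 PBS mice, 7 lay above every UNT mouse (0.90 ± 0.17, adjusted p = 1.28e-05).

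Per kilobase of merged exons, B2m was the highest member in UNT kidneys at 343 ± 66.8 CPM per kb (SD, n = 12), followed by H2-K1 (84.9 ± 17.5), H2-D1 (51.7 ± 11.5), Tapbp (29.3 ± 2.91), Psmb10 (8.79 ± 1.78), Tap2 (7.30 ± 1.29), Psmb8 (3.81 ± 0.84), Tap1 (2.86 ± 0.73), Psmb9 (1.45 ± 0.48) and Nlrc5 (0.92 ± 0.29). Merged exons measure 3660 bases in Psmb9 and 3381 in Psmb8, against 1352 and 1628 in their longest coding transcripts. For B2m both lengths are 860 bases. Levels per kb thus depend on the length used, and the order was not tested with another length. In the UNT order, the ranges of mean ± SD overlapped for Psmb10 and Tap2, for Psmb8 and Tap1, and for Psmb9 and Nlrc5. In PBS kidneys Psmb8 (20.5 ± 6.37 CPM per kb, n = 11) stood above Tap2 (15.4 ± 2.54), and the order was otherwise the same. There the range of Psmb8 overlapped with those of Psmb10 above it and Tap2 below it. These SDs are between mice, while the genes were measured in the same mice. Such overlaps therefore do not measure the difference between genes within mice, which was not tested.

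RNA of cell type markers differed between the same kidneys. Of 8 macrophage markers all 8 were called higher in PBS than in UNT kidneys, and their summed level ran from 692 to 1820 CPM in PBS and from 100 to 175 CPM in UNT mice. All 5 pan-leukocyte markers were called higher (summed level 212 to 521 CPM against 25.7 to 53.6 CPM), among them Ptprc, which encodes CD45, with a log2 fold change of 2.01. Of the 6 T cell markers matched in the tables, 5 were called higher, with a summed level of 11.3 to 36.2 CPM against 3.76 to 6.39 CPM. Of 8 kidney epithelial markers 7 were called lower and Aqp2 higher, and their summed level was 3469 to 6943 CPM in PBS against 14326 to 19773 CPM in UNT mice. No marker of these 4 lists was at 0 in any group. In bulk RNA, more cells of a type and more RNA per cell cannot be told apart, and the part of these marker differences in the members' levels was not tested.

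RGLS4326-treated kidneys had lower levels than PBS-treated kidneys for 9 of the 10 members, and 5 passed the test, at a background of 18.5% of genes called lower. The median log2 fold change of the members was -0.35, beside 0.00 over all genes tested, and every member overlapped between the groups. H2-D1 fell by 0.50 on the log2 scale (SE 0.15, adjusted p = 0.0127), and 10 of the 11 treated mice lay below the PBS mean. Psmb8 had a log2 fold change of -0.41 ± 0.15 (adjusted p = 0.0319, 11 of 11 treated mice below the PBS mean), from 29.3 over 52.9 to 67.4 CPM in treated mice. H2-K1 had -0.41 ± 0.14 (adjusted p = 0.0210), Tapbp -0.37 ± 0.11 (adjusted p = 0.0117) and Psmb10 -0.33 ± 0.12 (adjusted p = 0.0362). Tapbp ran from 159 over 227 to 302 CPM and Psmb10 from 25.6 over 34.3 to 47.9 CPM in treated mice.

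The other 5 members did not pass. Tap1 was at the threshold, with a log2 fold change of -0.34 ± 0.14 (adjusted p = 0.0507) and treated values of 25.1 over 41.7 to 52.2 CPM. Psmb9 (-0.36 ± 0.17, adjusted p = 0.0952) and Tap2 (-0.21 ± 0.10, adjusted p = 0.101) had treated medians of 11.3 and 50.7 CPM. B2m had -0.18 ± 0.12 (adjusted p = 0.216), although 10 of 11 treated mice lay below its PBS mean. Nlrc5 stood at 14.7 ± 4.14 CPM in RGLS4326 and 14.6 ± 4.2 CPM in PBS mice (SD, n = 11 each), a log2 fold change of 0.01 ± 0.17 (adjusted p = 0.964).

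**Figure D2:**
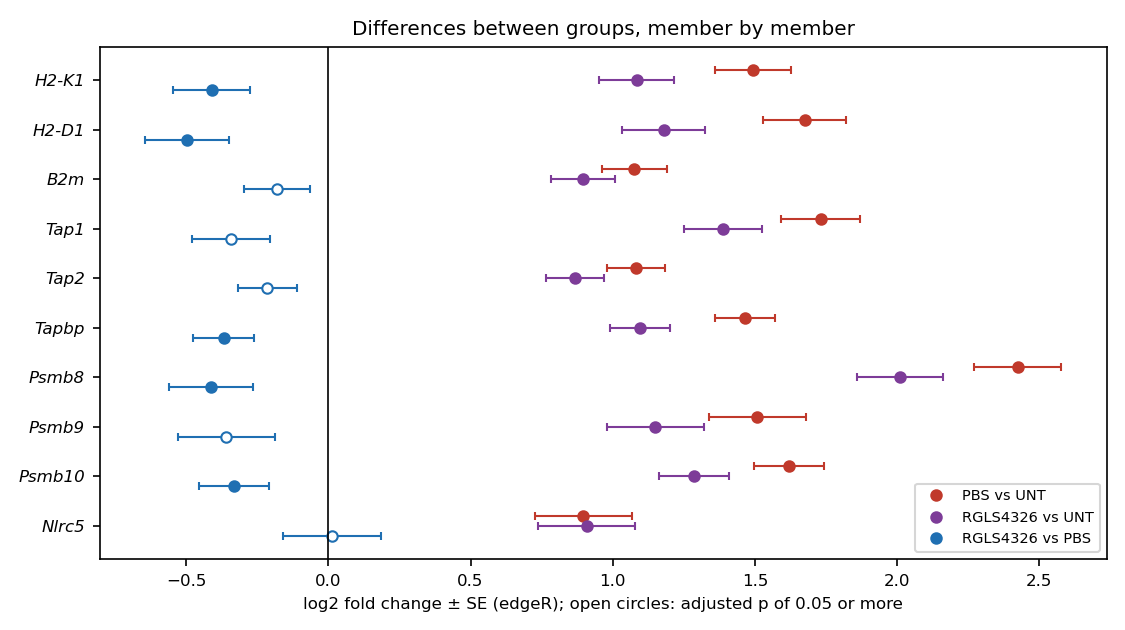
Log2 fold change of each member with its SE from the edgeR fit, for PBS vs UNT (red), RGLS4326 vs UNT (purple) and RGLS4326 vs PBS (blue), with filled circles for adjusted p under 0.05. The first 2 comparisons are filled and to the right of 0 for all 10 members, and 5 members are filled in RGLS4326 vs PBS, all to the left of 0.

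The treated kidneys remained above UNT kidneys for all 10 members (background 40.8% of genes called higher and 36.9% lower), by 1.82-fold (Tap2) to 4.03-fold (Psmb8). Tap1, Tap2, Tapbp, Psmb8 and Psmb10 did not overlap between RGLS4326 and UNT mice, a pattern that 20.7% of all genes tested showed. In the other 5, treated mice overlapped with the highest UNT mice. When the fit took in the percentage of multiply or otherwise not uniquely aligned reads, 5 of the 10 were called in this comparison (B2m, Tap1, Psmb8, Psmb10 and Nlrc5), with all 10 log2 fold changes between 0.52 and 1.65 and 26.0% of all genes called higher. That share was 22.8% to 25.7% in UNT, 14.8% to 19.4% in PBS and 14.8% to 19.1% in RGLS4326 libraries, so it separates the UNT group from the others.

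The call between RGLS4326 and PBS depended on the libraries. Library sets are the 3 runs of library numbers in the deposited tables, each with 3 or 4 mice of every group. In library set 2 alone 7 members were called lower, at a background of 11.9% of genes. In sets 1 and 3 alone 0 members were called by edgeR, with 0 at an unadjusted p under 0.05, and the background there was 0.0826% and 0% of genes called lower. H2-D1, for example, had log2 fold changes of -0.38, -0.80 and -0.46 in sets 1, 2 and 3, and H2-K1 -0.31, -0.70 and -0.34. Direction was shared where significance was not, since 9 members lay below 0 in every set. Nlrc5 was the exception, at -0.36, -0.04 and 0.43. In PBS vs UNT all 10 members were called higher within each of the 3 sets, where 37.0%, 35.9% and 33.8% of genes were.

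**Figure D3:**
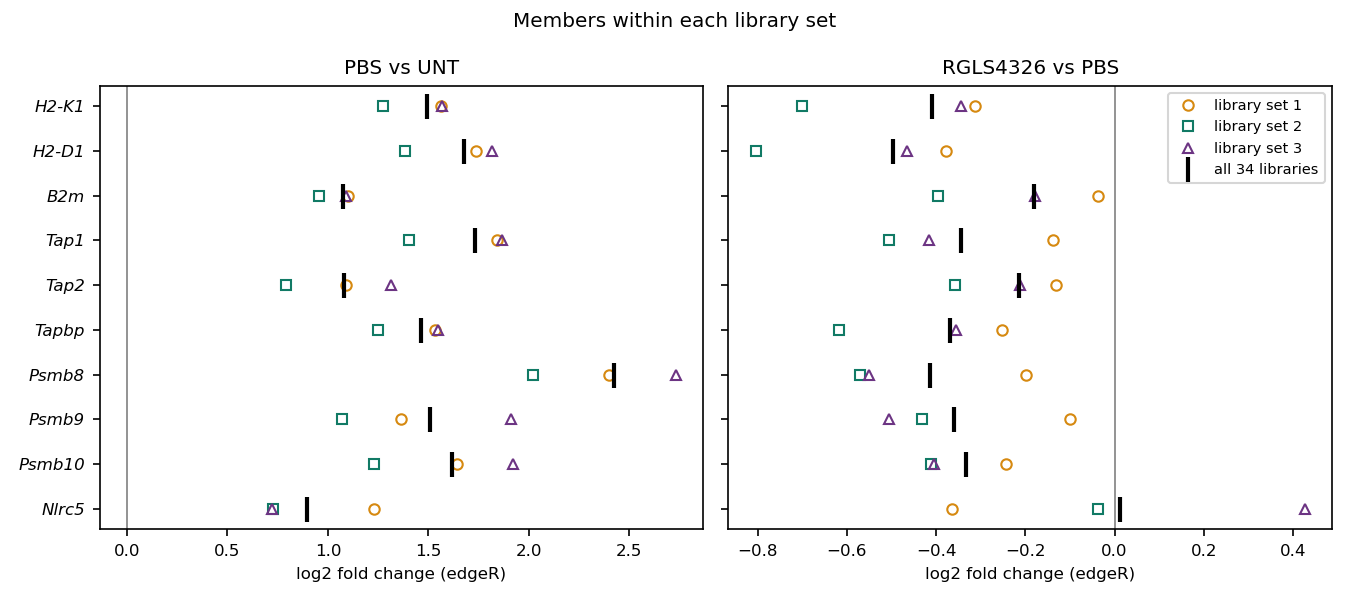
Log2 fold change of each member within library set 1 (circles), 2 (squares) and 3 (triangles) and over all 34 libraries (bar), for PBS vs UNT (left) and RGLS4326 vs PBS (right). In the left panel all points lie above 0, and in the right panel those of 9 members lie below 0 while Nlrc5 spans -0.36 to 0.43.

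RGLS4326 replicate 6 was the lowest treated mouse for all 10 members. Without it 3 members were called in RGLS4326 vs PBS (H2-K1, H2-D1 and Tapbp), and the same 3 were called when RGLS4326 replicate 5, 7 or 11 or PBS replicate 9 or 11 was left out. The genes called lower fell along with the members, from 18.5% to 14.6% without RGLS4326 replicate 6, to 14.7%, 15.1% and 15.6% without RGLS4326 replicates 5, 7 and 11, and to 13.2% and 14.8% without PBS replicates 9 and 11. PBS replicates 9 and 11 were among the highest 2 PBS mice for 9 of 10 members each, PBS replicate 8 was the lowest for 7, and UNT replicates 5 and 9 were among the highest 2 UNT mice for 9 each. H2-K1, H2-D1 and Tapbp kept their call whichever of the 34 libraries was left out. The share of reads in no gene was 9.84% to 11.3% in UNT, 5.18% to 9.0% in PBS and 4.94% to 12.0% in RGLS4326 libraries, without overlap between UNT and PBS. It was 11.3%, 11.4% and 12.0% in RGLS4326 replicates 5, 6 and 7, the treated libraries of set 2, and 11.7% in replicate 11. The other treated libraries had 4.94% to 8.92%. With this share as a covariate 0 members were called by edgeR in RGLS4326 vs PBS, 0 at an unadjusted p under 0.05, with log2 fold changes of -0.24 to -0.03, and 0.211% of all genes were called lower. In PBS vs UNT the same covariate left all 10 members called higher (background 37.0%), with a median log2 fold change of 1.1. DESeq2, without that covariate, called 6 members in RGLS4326 vs PBS, with 20.0% of all genes called lower.

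Ratios of counts within a library do not depend on its scaling, and they show that the members did not change in proportion. The ratio of H2-D1 to B2m counts was 0.450 in UNT, 0.674 in PBS and 0.542 in RGLS4326 mice (geometric means). It was higher in PBS than in UNT mice by 0.58 on the log2 scale (SE 0.07), with no overlap (permutation p = 2e-05, the smallest that the permutations can give, adjusted 6e-05 over 9 ratio tests). It was lower in RGLS4326 than in PBS mice by a log2 difference of -0.32 (95% interval -0.46 to -0.17, permutation p = 0.00038, adjusted 0.000684), with 11 of 11 treated mice below the PBS mean. The H2-K1 to B2m ratio moved the same way, from 0.844 in UNT to 1.12 in PBS and 0.955 in RGLS4326 mice, a log2 difference of -0.23 for RGLS4326 vs PBS (95% interval -0.35 to -0.10, permutation p = 0.0023, adjusted 0.00259). Over all libraries, both heavy chains differed between RGLS4326 and PBS relative to their light chain. Within sets 1, 2 and 3 the H2-D1 to B2m difference was -0.32, -0.39 and -0.29 (exact permutation p = 0.171, 0.0571 and 0.0857). That of H2-K1 to B2m was -0.26, -0.29 and -0.17 (exact permutation p = 0.114, 0.0571 and 0.171). The smallest p that 3 against 4 mice can give is 0.0571 and 4 against 4 can give is 0.0286. The share of reads in no gene was not taken into these ratio tests.

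The ratio of H2-K1 to H2-D1 was tightly held, at 1.88 in UNT, 1.66 in PBS and 1.76 in RGLS4326 mice, with SDs of 0.06 to 0.07 on the log2 scale. H2-D1 gained more than H2-K1 in PBS mice, with a log2 difference of -0.18 in the ratio against UNT (SE 0.03, permutation p = 2e-05, adjusted 6e-05) and no overlap between the groups. In RGLS4326 mice the ratio was higher than in PBS mice by 0.09 (SE 0.03, permutation p = 0.00462, adjusted 0.00462, 10 of 11 mice above the PBS mean). Windows shared with other class I genes, given above, make up more of H2-D1 than of H2-K1, and their part in this ratio was not tested.

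The immunoproteasome subunits were compared with the constitutive subunits whose places they take. Psmb8 counts were 15.3% of Psmb5 counts in UNT, 76.3% in PBS and 70.1% in RGLS4326 mice. Psmb9 counts were 4.50%, 12.3% and 11.6% of those of Psmb6, and Psmb10 counts 11.9%, 42.1% and 37.6% of those of Psmb7. All 3 ratios were higher in PBS than in UNT with no overlap, by log2 differences of 2.32 (SE 0.13), 1.45 (SE 0.15) and 1.82 (SE 0.13), each with permutation p = 2e-05, the smallest that the permutations can give (adjusted 3e-05 over 9 tests).

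Between RGLS4326 and PBS these ratios did not pass the test. The log2 difference was -0.12 for Psmb8 to Psmb5 (95% interval -0.36 to 0.11, permutation p = 0.314), -0.08 for Psmb9 to Psmb6 (-0.32 to 0.16, permutation p = 0.523) and -0.17 for Psmb10 to Psmb7 (-0.32 to -0.01, permutation p = 0.0551, adjusted 0.0708), with 11 of 11 treated mice below the PBS mean in the last. The constitutive partners were themselves lower in RGLS4326 than in PBS kidneys. Psmb5 had a log2 fold change of -0.27 (adjusted p = 0.0140) and Psmb6 of -0.25 (adjusted p = 0.0241), whereas Psmb7 at -0.16 did not pass (adjusted p = 0.0878). In PBS vs UNT, Psmb5 and Psmb6 had log2 fold changes of 0.08 and 0.07 that did not pass, and Psmb7 was called lower at -0.20. The copy Gm3375 and the microRNA gene Mir686 share 40.0% of the 75-base windows of the Psmb5 transcript, so its level is uncertain.

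**Figure D4:**
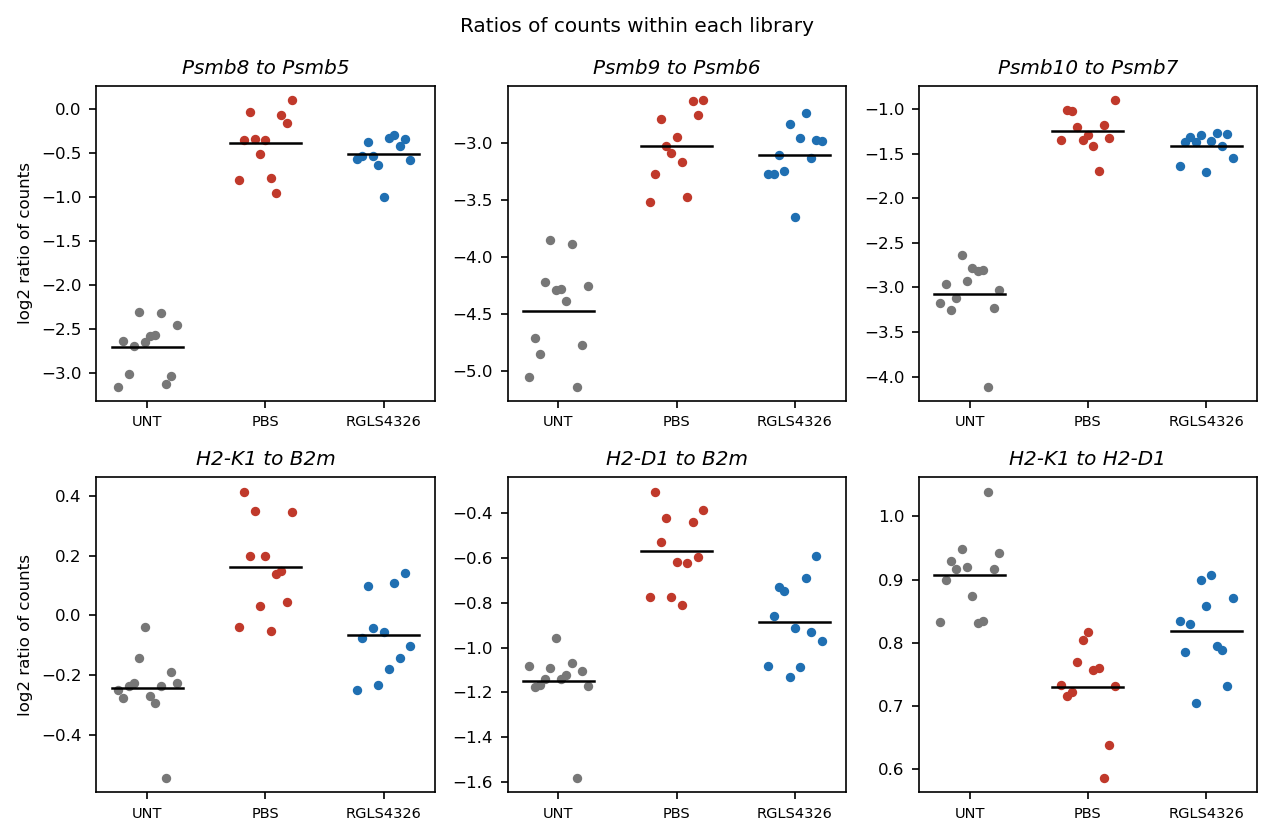
Log2 ratio of counts in each mouse for the 3 immunoproteasome subunits over their constitutive counterparts (top) and for the heavy chains over B2m and over each other (bottom), with bars at group means. The UNT mice lie below the other groups without overlap in the top row, PBS and RGLS4326 mice overlap there, and in the bottom row the RGLS4326 means lie between those of UNT and PBS.

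Other parts of the pathway were described through lists drawn up by function. Of the other class I heavy chains, 9 of 14 passed the filter, and 7 were called higher and 1 lower in PBS than in UNT (background 39.0% lower). H2-M3, which presents formylated peptides, had a log2 fold change of 1.80, H2-Q2 one of 1.2 and H2-Q4 one of 0.92. H2-T24 was lower at -1.01. H2-M2 had 0 to 4 counts in UNT, 10 to 72 in PBS and 10 to 47 in RGLS4326 libraries, so it passed the filter through the groups where it was high. Without it, 6 of 8 were called higher with a median log2 fold change of 0.58, and in RGLS4326 vs PBS 0 of the 9 were called by edgeR or by DESeq2, with 0 at an unadjusted p under 0.05 in either. Of 4 tested genes for class I-like proteins outside classical presentation, which pair with B2m, 2 were called higher and 1 lower in PBS vs UNT. Mr1, which presents vitamin B metabolites, was higher in PBS (1.22), as was the iron regulator Hfe (0.53), and Fcgrt, the neonatal Fc receptor, was lower (-0.43, adjusted p = 2.12e-06), while Cd1d1 had 0.25 and did not pass (adjusted p = 0.0964). Of 7 further loading and trimming genes 5 were called higher in PBS and 0 lower, led by the tapasin relative Tapbpl (1.44) and by Sec61a1, a subunit of the translocation channel (0.76), with Calr (0.45) and Pdia3 (0.24) next to Erap1. The trimming peptidase Erap1 was higher in PBS (0.64) and higher again in RGLS4326 than in PBS mice (0.27, adjusted p = 0.0173), whereas Tapbpl (-0.22, adjusted p = 0.0311) and Sec61a1 (-0.17, adjusted p = 0.0396) were lower there.

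The interferon-inducible activator subunits Psme1 and Psme2 were higher in PBS than in UNT (0.90 and 0.79) and lower in RGLS4326 than in PBS (-0.38 and -0.31, adjusted p = 0.0085 and 0.0149), while Psme4, a different activator, was lower in PBS (-0.62) and higher in RGLS4326 mice (0.23, adjusted p = 0.0368). Of 11 core subunits that have no immunoproteasome counterpart, Psma5 (0.31), Psma7 (0.20) and Psmb2 (0.27) were called higher and Psma3 (-0.28) and Psma4 (-0.59) lower in PBS vs UNT, with a median log2 fold change of 0.13. In RGLS4326 vs PBS 5 of the 11 were called lower and 0 higher (Psmb1, Psmb2, Psmb3, Psmb4 and Psma7), led by Psmb3 (-0.34, adjusted p = 0.0078), with a median of -0.18 beside -0.35 for the members, and all 11 log2 fold changes lay below 0. The assembly chaperone Pomp was lower there too (-0.28, adjusted p = 0.0104).

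Of 13 regulators of class I transcription 9 were called higher and 2 lower in PBS vs UNT. Nfkb1, a subunit of NF-kappaB, rose by 1.25 on the log2 scale, Irf1, the interferon-induced activator, by 1.53, and Ciita, the class II counterpart of Nlrc5, by 3.0. Of the 3 subunits of the factor that binds CCAAT, Nfyc was lower (-0.77), Nfya was higher (0.79, adjusted p = 5.80e-08) and Nfyb had -0.02 and did not pass. Rfxank was lower (-0.24). Between RGLS4326 and PBS mice, Rela (-0.32, adjusted p = 0.0054) and Irf1 (-0.27, adjusted p = 0.0257) were the 2 of 13 called, both lower. Of 7 tested genes of interferon signalling (receptors, kinases and Socs1) 6 were called higher in PBS vs UNT, with log2 fold changes of 1.96 for Ifngr2, 1.73 for Ifngr1 and 1.09 for Ifnar1, and Socs1, the feedback inhibitor that interferon induces, rose by 1.92. Ifnar1 (-0.15), Ifngr2 (-0.20) and Socs1 (-0.41) were called lower in RGLS4326 vs PBS. Transcripts of Ifng itself stayed too few to test, with at most 6 counts in any library. H2-Ea-ps, which the haplotype of C57BL6 mice does not transcribe, had at most 1 count.

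**Figure D5:**
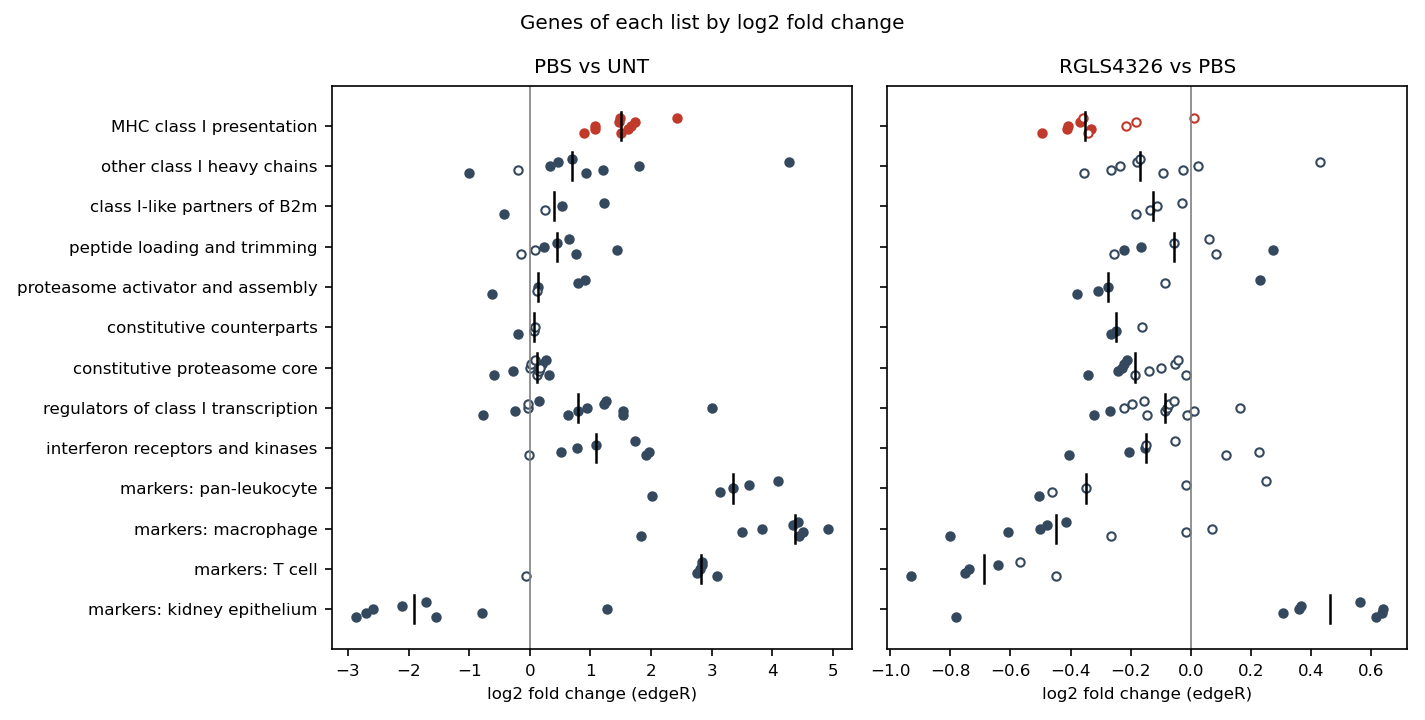
Log2 fold change of each tested gene (1 point per gene, filled at adjusted p under 0.05, bar at the median) by list, for PBS vs UNT (left) and RGLS4326 vs PBS (right). The members (red) have a median of 1.5 on the left and -0.35 on the right, macrophage markers have a median of 4.38 and pan-leukocyte markers one of 3.35 on the left, and 7 of 8 kidney epithelial markers lie across 0 from the members' median in both panels.

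The cell type markers also differed between RGLS4326 and PBS kidneys. Of the macrophage markers 5 of 8 were called lower and 0 higher (C1qa, C1qb, C1qc, Cd68 and Fcgr1), with Cd68 at -0.80 and C1qb at -0.61, but Emr1, which encodes F4/80, had 0.07 (adjusted p = 0.656) and Mrc1 -0.02. Laptm5 was the 1 pan-leukocyte marker of 5 called lower, and Ptprc had 0.25 (adjusted p = 0.0856). T cell markers had a median of -0.69 with 4 of 6 called lower (Cd3d, Cd3e, Cd3g and Cd4), led by Cd3d (-0.93, adjusted p = 0.0135). Of the epithelial markers 7 of 8 were called higher (background 15.3%), such as the sodium chloride transporter Slc12a3 (0.62), and Aqp2 was called lower. The summed level in RGLS4326 mice was 634 to 1246 CPM for macrophage, 181 to 366 CPM for pan-leukocyte, 8.58 to 17.1 CPM for T cell and 5479 to 7613 CPM for epithelial markers. Their part in the lower members was not tested.

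Beyond the group differences, the members varied together from mouse to mouse. After each group mean was removed from log2(CPM + 1), the correlation over the 34 libraries had a median of 0.83 across the 45 pairs of members, as a description with no test. It was highest between H2-K1 and H2-D1, at 0.99, and lay between 0.57 and 0.99 for the 36 pairs without Nlrc5. The 9 pairs with Nlrc5 lay between 0.18 (Tapbp) and 0.51. These libraries share their depth and library set within a mouse, and cell composition moves all genes of a cell type at once.

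Nlrc5 followed the mean of the other 9 members in UNT mice, with Pearson's r = 0.936 (permutation p = 4e-05, adjusted 0.0002 over 5 relations) and Spearman's rho = 0.944 (permutation p = 3e-05, adjusted 0.00015), and r = 0.890 without the 2 mice with the most extreme Nlrc5. In PBS mice r was 0.417 (permutation p = 0.199, adjusted 0.249, rho = 0.336 with permutation p = 0.312) and turned to -0.262 without 2 mice. In RGLS4326 mice r was 0.029 (permutation p = 0.935, adjusted 0.935, rho = -0.200 with permutation p = 0.558), and -0.370 without the 2 most extreme mice. Over all mice centred within group and library set it was 0.581 (permutation p = 0.00034, adjusted 0.00085, rho = 0.494 with permutation p = 0.00311), and 0.437 when centred within group (permutation p = 0.00989, adjusted 0.0165, rho = 0.367 with permutation p = 0.0330, adjusted 0.0551). Each library set held 3 or 4 mice of a group, too few for a value within it, and the difference between the groups' correlations was not tested.

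The genes outside all lists whose level followed the standardised mean of the members most closely within groups were Ifitm3 (r = 0.93), H2-DMa (0.91), Cd74 (0.91), Rac2 (0.90), Fcer1g (0.90), H2-Ab1 (0.89), Bst2 (0.89), Pld4 (0.89), H2-Eb1 (0.88) and Unc93b1 (0.88), over 34 libraries. They were picked for this likeness, so it has no test, and the median over all other genes was 0.02. The same 10 came out when libraries were centred within group and library set. Among listed genes, C1qb (0.920) and Coro1a (0.915) came closest. Cd74, the class II invariant chain, had a mean of 83.9 CPM in UNT, 1267 CPM in PBS and 805 CPM in RGLS4326 mice, and the restriction factor Ifitm3 67.6, 238 and 184 CPM.

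The stretch of chromosome 17 from H2-K1 to H2-D1 (33996017 to 35267499) holds 6 of the members and 69 other tested genes. Of these neighbours 33 were called higher and 22 lower in PBS vs UNT (background 43.1% and 39.0%), with a median log2 fold change of 0.19. C4b, a complement component, had the largest change, from 3.03 ± 1.57 CPM in UNT (SD, n = 12) to 116 ± 62.3 CPM in PBS mice (n = 11, log2 fold change 5.24, adjusted p = 3.42e-19), and H2-DMb2, a subunit of the class II loading factor, had 4.72. In RGLS4326 vs PBS 25 neighbours were called lower and 2 higher (Msh5 and Notch4, background 18.5% and 15.3%), with a median of -0.18. C4b was lower there by 1.26 on the log2 scale (adjusted p = 0.000934), at 48.5 ± 13.9 CPM, and Agpat1, a lipid enzyme, had -0.26 (adjusted p = 0.0036).

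B2m is also 1 of the 6 reference genes against which the study set its signature of miR-17 targets, so its own change enters that score. Computed here from log2(CPM + 1) as the mean of the 10 signature genes less the mean of the reference genes, the score was -1.09 ± 0.15 in UNT (SD, n = 12), -1.82 ± 0.23 in PBS (n = 11) and -1.40 ± 0.21 in RGLS4326 mice (n = 11). The PBS mice lay 0.73 below UNT with B2m among the reference genes (log2 difference -0.73) and at -0.62 without it, and the difference between RGLS4326 and PBS was 0.42 with it (permutation p = 0.0001) and 0.41 without it (permutation p = 0.00016). Each of the 11 treated mice lay above the PBS mean in both versions. Of the 6 reference genes Gusb (1.61), B2m (1.08), Rplp0 (0.74) and Hprt (0.21) were called higher and Tbp (-0.43) lower in PBS vs UNT, while in RGLS4326 vs PBS Gusb alone was called (-0.21, adjusted p = 0.0340). Of the 10 signature genes themselves, 5 were called higher and 4 lower in PBS vs UNT (background 43.1% and 39.0%). Their median log2 fold change there was 0.02, so they did not fall together in PBS mice. In RGLS4326 vs PBS 6 of the 10 were called higher and 0 lower (background 15.3% and 18.5%), with a median of 0.31. The study chose the signature genes as miR-17 targets, so their direction is not independent evidence.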

How the data were processed

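Per the labels, 1 library of polyadenylated kidney RNA was made per mouse. The authors aligned trimmed reads to the mouse genome GRCm38 and deposited whole-number counts of uniquely aligned reads per gene, 1 table per mouse. The submitters' processing notes name STAR, Trim Galore, FastQC 0.11.2, Picard 1.119, SAMtools 1.1 and HTSeq 0.6.1. Libraries held 17603122 to 54981992 reads in genes, and counting error was below the spread between mice.

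All 34 libraries were fitted together in 3 groups with edgeR 4.0.16 (R 4.3.3), using filterByExpr, TMM scaling, the quasi-likelihood test and Benjamini-Hochberg adjustment over 15644 of 23509 genes. The procedure was tested on simulated data. The SE is the absolute log2 fold change divided by the square root of F. Ratios within a library were log2 ratios of counts after adding 1, compared by two-sided permutation tests (100000 resamples, exact within library sets) with scipy 1.17.1, and their 95% intervals used the normal approximation. Named were all members, up to 4 genes per other list by p in PBS vs UNT and up to 2 by p in RGLS4326 vs PBS, the 10 unlisted genes most correlated with the members, the genes behind a count of 5 or fewer, and the defining markers Ptprc and Cd8a and the subunits Nfya and Nfyb, which were chosen after their values were seen. The members and lists were chosen with earlier results of these data known. Alternatives were RLE scaling, DESeq2 1.42.0, no filter, a replicate block, a library set term, either alignment share as a covariate, each set alone, 2 groups only, a fold threshold, another pseudocount and leaving out each library. The p-values measure the spread between mice, which the labels number separately.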

Additional observations from a re-analysis of the deposited data

How the results depend on the processing

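In PBS vs UNT 10 of 10 members were called under every alternative run. In RGLS4326 vs PBS the count of members, 5, became 0 when the share of reads in no gene entered the fit, in library set 1 alone, in set 3 alone and at an absolute log2 fold change above 0.5, and ran from 3 to 7 when each library was left out in turn. Other pathway genes called there became 0 under that covariate, 0 in set 1 and 0 in set 3 (9 to 23 without single libraries), and neighbours on chromosome 17 became 0, 1 and 0 (16 to 35). Over all genes this covariate left 56 higher and 33 lower, set 1 gave 41 and 13, and set 3 gave 0 and 0, against 2388 and 2892. When the share of reads not uniquely aligned entered the fit, 25 other pathway genes and 33 neighbours were called in PBS vs UNT (4094 higher and 3244 lower over all genes, against 6746 and 6095), and 5 members and 30 neighbours in RGLS4326 vs UNT. Nlrc5 in RGLS4326 vs PBS changed sign, to -0.18 when that share of reads in no gene entered the fit, -0.36 in set 1 and -0.036 in set 2, and ran from -0.050 to 0.078 without single libraries. The difference in the log2 ratio of H2-K1 to B2m was 0.32 in set 2 for PBS vs UNT, -0.17 in set 3 for RGLS4326 vs PBS, and 0.18 in set 1 and 0.030 in set 2 for RGLS4326 vs UNT. That of H2-D1 to B2m was -0.29 in set 3 for RGLS4326 vs PBS and 0.036 in set 2 for RGLS4326 vs UNT. That of H2-K1 to H2-D1 was 0.12 in set 3 for RGLS4326 vs PBS, and -0.11, -0.0056 and -0.14 in sets 1, 2 and 3 for RGLS4326 vs UNT. In set 2 alone Psmb8 to Psmb5 differed by 1.87 and Psmb10 to Psmb7 by 1.33 in RGLS4326 vs UNT. The miR-17 score with all reference genes differed by 0.52 in set 3 (exact permutation p = 0.0571). The smaller number of mice in a set is part of its construction, and otherwise the cause was not tested. The replicate numbers did not pair the mice, since 2, 5 and 3 of 11 same-numbered pairs correlated above 0.1 in the 3 comparisons and 0, 1 and 1 correlated best with their own number. With the replicate block 10, 4 and 10 members were called, and Psmb10 lost its call in RGLS4326 vs PBS.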

Other observations

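Markers of further cell types that express class I molecules were measured beside the members. All 3 tested natural killer cell markers were called higher in PBS than in UNT kidneys (Klrb1c, log2 fold change 2.06, Gzmb, 1.26, and Gzma, 0.90), and in RGLS4326 vs PBS 0 of them were called by edgeR or DESeq2, with 0 at an unadjusted p under 0.05. Of 5 dendritic cell markers 4 were called higher in PBS, with 3.73 for Itgax and 2.44 for Flt3, while Zbtb46 had 0.14 and did not pass. Itgax was lower in RGLS4326 vs PBS (-0.44, adjusted p = 0.0402) and Zbtb46 higher (0.34, adjusted p = 0.0135). Of 4 B cell markers 1 was called higher and 1 lower in PBS vs UNT, with a median log2 fold change of -0.22. In RGLS4326 vs PBS 1 of the 4 was called lower and 0 higher, with a median of 0.11. The B cell receptor subunit Cd79b was the 1 called higher in PBS vs UNT (2.08). It was also the 1 called lower in RGLS4326 vs PBS (-0.60, adjusted p = 0.0101).

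Cd8a and Cd8b1 encode the 2 chains of the CD8 receptor that binds class I molecules. Cd8b1 had a log2 fold change of 2.84 in PBS vs UNT (called higher), whereas Cd8a had -0.07 (adjusted p = 0.739). Of 5 endothelial markers Pecam1 (0.29) and Cdh5 (0.50) were called higher and Kdr (-0.52), Emcn (-0.90) and Tie1 (-0.29) lower in PBS vs UNT. Between RGLS4326 and PBS 4 of the 5 were called higher, with Kdr at 0.43 (adjusted p = 0.00203), and their summed level was 424 to 528 CPM in RGLS4326, 340 to 489 CPM in PBS and 418 to 524 CPM in UNT mice.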
